A study of Mus musculus with 16 samples.

Results

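Galectins are secreted and cytosolic lectins, and 6 genes of the group were followed in livers of mice on a high-fat diet: Lgals1, Lgals3, Lgals4, Lgals8, Lgals9 and Lgals3bp, which encodes a galectin ligand. They were picked by name, after Lgals1 had been seen to be among the genes with the lowest level in Cre livers relative to GFP livers. The gene table held 55487 rows, of which 13905 passed a filter on low counts and were tested, and all 6 genes passed it. Lgals1 had the 28th lowest log2 fold change of the 13905 genes in Cre livers against GFP livers. Because that contrast is behind the choice, the values of the 6 genes in it are given as a description with no test, and so are those of Flpo livers against Cre livers, which use the same Cre libraries. Flpo livers against GFP livers is tested, with the GFP libraries shared.

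Galectins bind beta-galactoside sugars on glycoproteins and glycolipids through a conserved carbohydrate recognition domain. Outside the cell they cross-link glycosylated receptors and matrix proteins. Inside it some of them bind glycans exposed on damaged lysosomes. In liver, galectin-1 and galectin-3 are best known from activated stellate cells and macrophages, and galectin-9 from Kupffer cells. Galectin-1 is a prototype galectin with a single sugar-binding domain, and galectin-3 is the chimera type, which carries a long flexible tail. Galectins 4, 8 and 9 are tandem repeats that join a pair of different domains in a single chain.

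The study sequenced polyA-enriched liver RNA from mice with hepatocyte-specific forms of the JNK stress kinases. By the study's own design text, the Flpo group (n = 6) stands for the 7b form, the Cre group (n = 5) for the 7a form and the GFP group (n = 5) for the control. All 3 groups carried the label J1 J2 lf/lf on the C57/Bl6J strain and all were fed the high-fat diet. The labels give no age, and do not say how the recombinases were delivered or whether every library is its own animal, and the p-values below rest on how much libraries of a group vary.

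Total estimated counts ranged from 27929393 to 36043322 per library, and 17067 to 18257 genes were above 0. Mapk8 and Mapk9, the genes of JNK1 and JNK2, are counted as whole genes, which does not separate the 7a and 7b forms. Mapk8 averaged 13.5 CPM (counts scaled to library size) in Flpo, 11.4 CPM in Cre and 11.7 CPM in GFP livers, and Mapk9 averaged 46.3, 33.1 and 42.7 CPM in the same order of groups. The 11 hepatocyte markers summed to between 69814 and 85508 TPM (counts scaled to transcript length and library size) in Flpo livers, 64730 and 92913 TPM in Cre livers and 77102 and 85345 TPM in GFP livers, with none at 0. A summary score of 15 circadian clock genes ran from -1.38 to -0.02 in Flpo, 0.24 to 1.28 in Cre and -0.89 to 0.74 in GFP libraries, so Flpo and Cre libraries did not overlap in it. The part of this difference in the results was not tested, and the Lgals1 values and the counts of calls with the score as a covariate are given beside the results below. That fit can hardly separate the score from the difference of Flpo and Cre, so a call lost with it is not read as an effect of the score.

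On the TPM scale, which corrects for transcript length, Lgals9 was the most abundant of the 6 genes in every group. It averaged 358 ± 24.01 TPM in Flpo livers, 362 ± 59.8 TPM in Cre livers and 396 ± 37.3 TPM in GFP livers (SD; n = 6, 5 and 5, as for every mean below). Lgals1 came next in Flpo livers, at 166 ± 41.1 TPM, and in GFP livers, at 165 ± 14.4 TPM, but in Cre livers it stood below Lgals3bp and Lgals8, at 16.7 ± 7.22 TPM. Lgals3bp averaged 84.3, 67.7 and 85.5 TPM in Flpo, Cre and GFP livers, and Lgals8 averaged 58.9, 60.7 and 60.4 TPM. Lgals4, at 10.6, 11.1 and 11.6 TPM, and Lgals3, at 7.78, 4.08 and 6.81 TPM, closed the order in all groups. Neighbours whose libraries overlapped were Lgals3bp and Lgals8 in GFP and in Cre livers, Lgals4 and Lgals3 in GFP and in Flpo livers, and Lgals1 and Lgals4 in Cre livers.

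The make-up of the 6-gene sum therefore differed in Cre livers. Lgals1 made up 24.02 ± 5.09% of the summed TPM in Flpo livers, 3.09 ± 0.861% in Cre livers and 22.8 ± 1.51% in GFP livers, while Lgals9 made up 52.4%, 69.3% and 54.6%. The sum was 686 ± 33.5 TPM in Flpo livers, 522 ± 81.5 TPM in Cre livers and 726 ± 63.8 TPM in GFP livers. Without Lgals1 it was 520, 505 and 560 TPM.

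**Figure D1:**
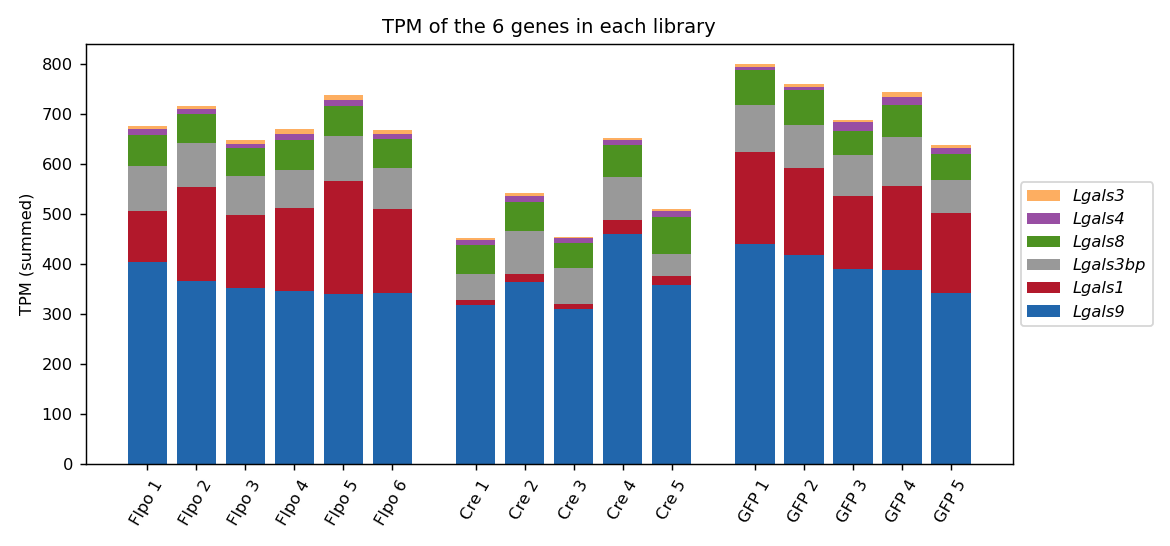
Stacked TPM (vertical axis, linear, from 0) of the 6 genes in each of the 16 libraries, with Flpo, Cre and GFP libraries from left to right. The Lgals1 segment averages 166 TPM in Flpo, 16.7 TPM in Cre and 165 TPM in GFP libraries, and the Lgals9 segment is the tallest in all of them.

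Lgals1, which encodes galectin-1 and lies on chromosome 15 (chr15:78926725-78930465, plus strand, GRCm38), was the member that set Cre livers apart. It had 4.69, 8.15, 6.34, 11.9 and 8.95 CPM in Cre livers, against 74.6, 74.6, 66.5, 68.4 and 73.0 CPM in GFP livers. Every Cre library was below every GFP library, and the 2 groups lay far apart. The fitted log2 fold change was -3.15 (SE 0.22), an 8.89-fold lower level in Cre livers. Counts were ample, with 131 to 397 estimated counts per Cre library and 1911 to 2353 per GFP library. The processed pseudogenes Lgals1-ps1 and Lgals1-ps2 are annotated on chromosomes 17 and 15, and their counts were not analysed here.

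In Flpo livers Lgals1 ran from 43.0 CPM, with a median of 68.7 CPM, to 95.6 CPM, and the GFP values fell inside this range. The log2 fold change of Flpo against GFP was -0.02 (95% interval -0.44 to 0.40; adjusted p = 0.985, edgeR quasi-likelihood test with Benjamini-Hochberg adjustment). Flpo replicate 1 was the lowest and replicate 5 the highest of the Flpo libraries. The difference turned to 0.089 without Flpo replicate 1 and to 0.0083 without Flpo replicate 3. Against Cre livers the fitted value was 3.13 (SE 0.22), an 8.78-fold higher level in Flpo livers, with no overlap of libraries. With the clock score as a covariate, the fitted Lgals1 value was -2.86 (SE 0.22) for Cre over GFP, -0.43 (SE 0.25) for Flpo over GFP and 2.43 (SE 0.35) for Flpo over Cre. The spread within groups, as the SD over the mean, was 25.4% in Flpo, 34.3% in Cre and 5.24% in GFP livers.

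**Figure D2:**
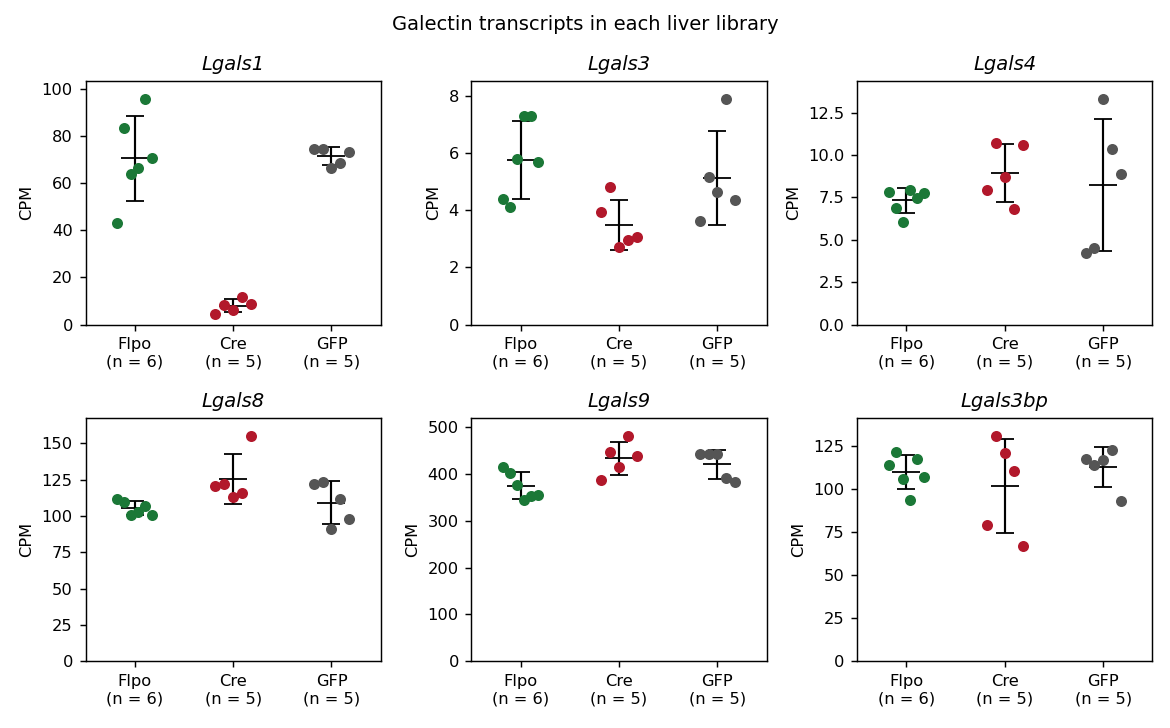
CPM (linear vertical axes, from 0) of each of the 6 genes in every library, with Flpo, Cre and GFP groups from left to right; points are libraries, horizontal lines are means and bars are SD. The 5 Cre libraries of Lgals1 lie between 4.69 and 11.9 CPM, below all Flpo and GFP libraries, while Cre and GFP libraries of the other 5 genes overlap.

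Lgals3 encodes galectin-3, a lectin of macrophages, and lies on chromosome 14 (chr14:47367751-47386160, plus strand). It was low in all livers, with 3.93, 4.81, 2.72, 2.95 and 3.06 CPM in Cre livers against 3.61, 5.15, 4.63, 7.89 and 4.38 CPM in GFP livers. These groups overlapped, although 3 Cre libraries were below the lowest GFP library. The fitted log2 value was -0.55 (SE 0.23). Flpo libraries ran from 4.12 to 7.30 CPM around a median of 5.73 CPM, overlapping both other groups. Flpo livers stood at 0.17 against GFP (95% interval -0.30 to 0.64; adjusted p = 0.837, edgeR) and at 0.72 (SE 0.22) against Cre.

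Lgals4, Lgals8 and Lgals9 encode the tandem-repeat galectins. Lgals4, a galectin best known from the gut lining, lies on chromosome 7 (chr7:28833854-28841708, plus strand). It had 7.94, 10.7, 8.69, 6.80 and 10.6 CPM in Cre livers against 4.21, 4.50, 13.3, 10.3 and 8.85 CPM in GFP livers. All Cre values lay inside the GFP range, whose highest library was above 3 times its lowest, and the log2 value was 0.12 (SE 0.25). Flpo libraries kept to 6.06 to 7.92 CPM with a median of 7.62 CPM. The Flpo against GFP value was -0.17 (95% interval -0.69 to 0.35; adjusted p = 0.851, edgeR) and turned to 0.070 without GFP replicate 3. Flpo against Cre was -0.29 (SE 0.24).

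Lgals8 encodes galectin-8, which binds glycans on damaged lysosomes and recruits autophagy receptors, and lies on chromosome 13 (chr13:12439415-12464944, minus strand). It had 120, 122, 113, 116 and 155 CPM in Cre livers against 122, 123, 90.9, 112 and 97.7 CPM in GFP livers. Cre replicate 5 was the highest of the 16 libraries, and the rest of the Cre libraries lay within the GFP range. The log2 value of Cre against GFP was 0.20 (SE 0.10), against 0.048 with library totals alone, 0.013 on the TPM scale and 0.050 with the clock score. Flpo libraries ran from 101 to 111 CPM with a median of 105 CPM, all below every Cre library, and the Flpo against Cre value was -0.25 (SE 0.096). It was -0.11 with library totals alone and -0.030 on the TPM scale, and 0.072 with the clock score. Flpo livers stood at -0.05 against GFP livers (95% interval -0.26 to 0.16; adjusted p = 0.893, edgeR). The gene overlaps Heatr1 on the opposite strand, and no source used here says whether counting used strand. Heatr1 averaged 14.3, 15.7 and 13.0 CPM in Flpo, Cre and GFP livers.

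Lgals9 encodes galectin-9, a ligand of the immune receptor Tim-3, and lies on chromosome 11 (chr11:78962974-78984946, minus strand). It had 387, 445, 415, 481 and 437 CPM in Cre livers against 442, 442, 442, 391 and 382 CPM in GFP livers. The groups overlapped and the log2 value was 0.04 (SE 0.084), against -0.10 with library totals alone and -0.14 on the TPM scale. Flpo libraries were the lowest on average, from 344 CPM through a median of 366 CPM to 415 CPM. The Flpo against GFP value was -0.17 (95% interval -0.34 to 0.01; unadjusted p = 0.0543, adjusted p = 0.521, edgeR). Flpo against Cre was -0.21 (SE 0.081), -0.080 with library totals alone and -0.0018 on the TPM scale.

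Lgals3bp encodes a secreted, heavily glycosylated ligand of galectin-3 and is known as an interferon-inducible gene. It lies on chromosome 11 (chr11:118392751-118402092, minus strand). It had 79.1, 131, 121, 110 and 67.1 CPM in Cre livers against 118, 114, 117, 123 and 92.9 CPM in GFP livers. Cre replicates 1 and 5 were below every other library of the series, and Cre replicate 2 was above them all. The log2 value of Cre against GFP was -0.15 (SE 0.15). Flpo libraries ran from 93.4 through a median of 111 to 122 CPM. The Flpo against GFP value was -0.04 (95% interval -0.34 to 0.27; adjusted p = 0.951, edgeR) and turned to 0.0072 without Flpo replicate 4. Flpo against Cre was 0.11 (SE 0.14).

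Counted over the 6 genes, Cre and GFP libraries did not overlap for 1 gene, Lgals1, which was lower in Cre; over all 13905 genes the libraries of these groups did not overlap for 8.20%, with 4.64% lower and 3.56% higher in Cre. Nothing is read from that count, since the contrast chose the gene. Flpo and GFP libraries overlapped for all 6 genes, with 1.55% of all genes not overlapping, 0.676% higher and 0.870% lower in Flpo. None of the 6 passed edgeR's quasi-likelihood test in Flpo against GFP at an adjusted p under 0.05, and none had an unadjusted p under 0.05; 0.0288% of all genes, 4 in number, were called, and 1353 genes had an unadjusted p under 0.05. DESeq2 and limma-voom also called none of the 6. Flpo and Cre libraries did not overlap for 2 genes, Lgals1 higher and Lgals8 lower in Flpo, where 7.84% of all genes did not overlap, 4.52% higher and 3.32% lower. The median log2 value over the 6 genes was -0.05 for Cre over GFP, -0.04 for Flpo over GFP and -0.05 for Flpo over Cre, and over all genes it was 0.0014, -0.0055 and -0.0050.

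**Figure D3:**
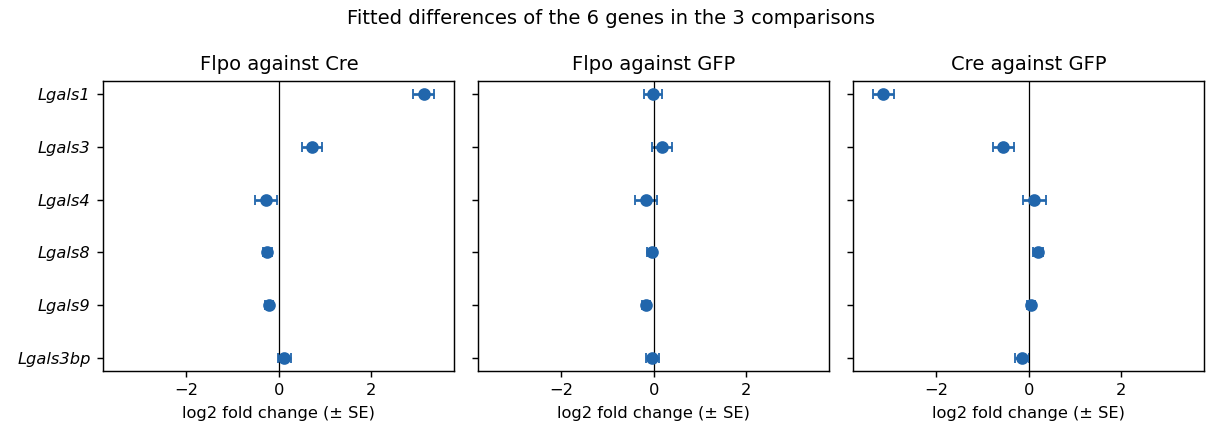
Fitted log2 fold changes (horizontal axis, with SE bars) of the 6 genes in Flpo against Cre, Flpo against GFP and Cre against GFP livers. Lgals1 stands at 3.13, -0.02 and -3.15, and the other 5 genes lie between -0.55 and 0.72.

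Of the other family genes, Lgalsl, which encodes a galectin-related protein, was tested. It averaged 14.4 ± 3.26 CPM in Flpo, 16.2 ± 2.79 CPM in Cre and 16.1 ± 2.27 CPM in GFP livers, with adjusted p = 0.764 in Flpo against GFP, 0.999 in Cre against GFP and 0.518 in Flpo against Cre (edgeR). Lgals2 reached 6.04 estimated counts and was above 0 in 3 libraries of each group. Lgals7 and Lgals12 were each above 0 in 1 Flpo library, and Grifin was listed at 0 throughout.

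The genes around Lgals1 on chromosome 15 were also read, chosen by position after the Lgals1 values were known. They were the 3 nearest tested genes on either side. Nol12, starting 4468 bases beyond the gene, averaged 9.87 CPM in Cre and 10.7 CPM in GFP livers (log2 fold change -0.11, adjusted p = 0.701, edgeR). Pdxp, ending 7208 bases before it, was near the floor of detection at 0.138 CPM in Cre and 0.372 CPM in GFP livers (-1.39, adjusted p = 0.302). Triobp stood at -0.34 with an adjusted p of 0.0567, and Sh3bp1, Gga1 and Gm17753 had adjusted p between 0.507 and 0.792. None of the 6 neighbours passed the threshold in Cre against GFP, where 9.55% of all genes were called, so nothing is read from that count.

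The genes whose log2 CPM followed each member most closely over the 16 libraries were ranked by Pearson's r among 11789 genes. These libraries share a design in which the groups differ, so r is also given for deviations from the group means. The closest to Lgals1 was Mgst3, a microsomal glutathione S-transferase, with r = 0.98 and 0.87 for deviations. Mgst3 had 5.90, 7.90, 5.33, 9.41 and 7.89 CPM in Cre livers, against 24.3 to 27.6 CPM with a median of 25.8 CPM in GFP livers. In Flpo livers it ran from 13.2 to 29.4 CPM, and Flpo replicate 1 was the lowest and replicate 5 the highest, the same libraries as for Lgals1. Cd36, the fatty acid translocase, followed with r = 0.97 (0.59 for deviations) and averaged 236 ± 31.4 CPM in Flpo, 33.9 ± 18.6 CPM in Cre and 224 ± 52.1 CPM in GFP livers. Others among the 10 closest were Slc22a27 and Slc22a29, organic anion transporter family genes, Sult1c2, a sulfotransferase, Corin, a protease, Pyroxd2, Trim7 and Cryzl2. Their r ran from 0.95 to 0.96. For all 10 genes every Cre library was below every other library, which is the pattern that the ranking sought.

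For the other members the 3 closest genes had lower r. Lgals3 was followed by Arvcf (0.90), the interferon-inducible GTPase gene Gbp2 (0.87) and Tmem176a (0.85). Lgals4 was followed by Fam193b (0.89) and by Pnn (0.84) and Luc7l (0.83), which encode splicing-related proteins. Lgals8 was followed by Clint1 (0.95), the pyruvate dehydrogenase kinase gene Pdk4 (0.90) and Tor3a (0.89). Lgals9 was followed by Gm17753 (0.88), Elp2 (0.86) and the kinase gene Sgk2 (0.86). Between members, r ran from -0.68 for Lgals3 and Lgals9 to 0.64 for Lgals1 and Lgals3. Over deviations from group means these were -0.54 and 0.02.

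Among the 3 genes closest to Lgals3bp were the interferon-stimulated genes Isg15 (0.88) and Ifit1 (0.87), with r of deviations of 0.93 and 0.89. Isg15 had 9.84, 37.6, 21.5, 15.01 and 3.61 CPM in Cre replicates 1 to 5, and Ifit1 had 9.51, 43.3, 34.4, 29.2 and 4.08 CPM. Cre replicates 1 and 5 were thus low, and replicate 2 high, in all of Lgals3bp, Isg15 and Ifit1. In GFP livers Isg15 stayed within 11.1 to 18.6 CPM.

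Because Lgals3bp moved with these interferon-stimulated genes, the promoters of the 3 genes are shown with that of Lgals9. It was the other member with matches among the 5 members searched. The sequences used held no Lgals1 promoter, so that of Lgals1 was not searched. They are 300 bases each, from 250 before to 50 after the start of the gene as RefSeq gives it, on GRCm38.p6 and written 5′ to 3′ along the gene. In Isg15 (chr4:156200769-156201068, minus strand), Ifit1 (chr19:34640639-34640938, plus strand) and Lgals9 (chr11:78984875-78985174, minus strand), capitals mark matches on either strand to GAAA, any 2 bases and GAAA, the core of an interferon-stimulated response element. In Lgals3bp (chr11:118401910-118402209, minus strand), capitals mark the single match to a looser form that lacks the first G (AAA, any 2 bases, GAAA), searched after the longer one gave no match there. Every match of the longer motif also holds the looser.
Isg15: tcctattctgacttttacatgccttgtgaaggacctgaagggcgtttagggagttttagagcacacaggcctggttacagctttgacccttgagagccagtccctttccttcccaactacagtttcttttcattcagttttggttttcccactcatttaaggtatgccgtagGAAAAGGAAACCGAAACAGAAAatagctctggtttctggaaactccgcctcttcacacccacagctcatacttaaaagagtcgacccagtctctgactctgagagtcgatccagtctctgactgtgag
Ifit1: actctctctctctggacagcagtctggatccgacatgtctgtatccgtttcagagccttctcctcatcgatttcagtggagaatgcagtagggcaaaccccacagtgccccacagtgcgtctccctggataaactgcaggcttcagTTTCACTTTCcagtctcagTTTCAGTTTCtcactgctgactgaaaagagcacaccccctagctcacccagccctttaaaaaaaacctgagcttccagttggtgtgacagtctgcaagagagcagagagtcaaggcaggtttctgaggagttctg
Lgals9: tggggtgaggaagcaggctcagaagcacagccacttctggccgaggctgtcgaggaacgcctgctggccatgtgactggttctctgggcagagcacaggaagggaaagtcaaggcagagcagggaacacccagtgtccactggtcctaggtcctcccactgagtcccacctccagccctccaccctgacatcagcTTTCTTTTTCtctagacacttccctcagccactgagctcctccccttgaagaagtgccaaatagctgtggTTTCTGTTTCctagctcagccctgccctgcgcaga
Lgals3bp: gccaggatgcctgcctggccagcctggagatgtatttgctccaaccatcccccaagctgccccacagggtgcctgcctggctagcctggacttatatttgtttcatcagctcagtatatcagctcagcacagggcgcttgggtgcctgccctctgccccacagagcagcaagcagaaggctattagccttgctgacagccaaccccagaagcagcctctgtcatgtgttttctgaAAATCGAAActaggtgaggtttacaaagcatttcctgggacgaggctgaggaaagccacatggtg
Isg15 held 3 overlapping matches to the longer motif, Ifit1 held 2 and Lgals9 held 2, while Lgals3bp held none. Of 32851 promoters of the same length, 3.44% held the longer motif and 10.6% the looser. The promoters of Lgals3, Lgals4 and Lgals8 held neither. TGANTCA, the AP-1 motif that JNK-phosphorylated Jun binds, was in none of the promoters of the 5 members searched and in 7.81% of all. Whether the Lgals1 promoter holds any of these motifs is therefore not known here. The windows of Lgals3 (chr14:47373610-47373909) and Lgals8 (chr13:12461689-12461988) lie inside the gene spans given above, so the starts of those spans were not searched. A match is a description of these letters and not a measured site.

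**Figure D4:**
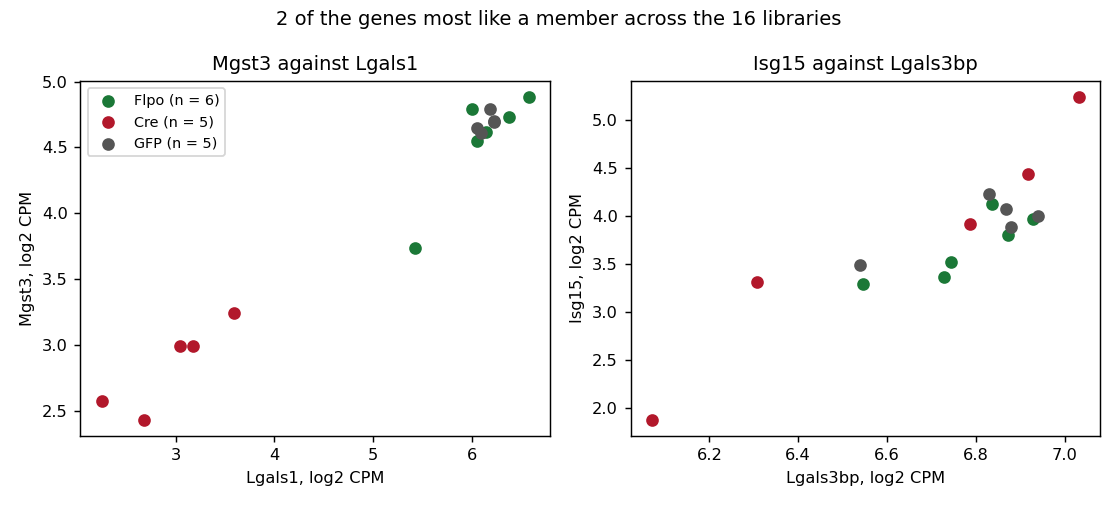
Log2 CPM of Mgst3 against Lgals1 and of Isg15 against Lgals3bp in the 16 libraries, coloured by group (Flpo, Cre, GFP). Cre libraries form a low cluster in the first panel, while in the second they spread over the whole range, from replicate 5 at 67.1 CPM of Lgals3bp and 3.61 CPM of Isg15 to replicate 2 at 131 and 37.6 CPM.

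Partners and glycans that galectins act on were read from lists of known genes. With the clock score as a covariate, the calls left in all lists were Egfr, Col1a1, Col1a2, Col3a1 and Wt1 in Cre against GFP livers, and there were none in the other comparisons. Library totals alone and TPM move the median of all genes, and their counts are given beside those of the partner, glycan, lysosome, stellate cell and macrophage lists. Among 23 galectin-binding glycoproteins in Cre against GFP livers, 3 rose and 1 fell, with a list median of 0.07 where 9.55% of all genes were called, 3.97% higher and 5.58% lower. Egfr, the epidermal growth factor receptor, averaged 475 ± 137 CPM in Cre and 96.7 ± 25.7 CPM in GFP livers (log2 fold change 2.30, SE 0.23, adjusted p = 1.89e-05, edgeR). Slc2a2, the hepatocyte glucose transporter GLUT2, averaged 167 ± 65.2 CPM in Cre and 289 ± 24.2 CPM in GFP livers (-0.79, adjusted p = 0.00998). The integrin subunit gene Itga5 (0.51, adjusted p = 0.0348) and the co-receptor gene Nrp1 (0.71, adjusted p = 0.0437) were the others. The Itga5 call was lost without any 1 of GFP replicates 3, 4 and 5 or Cre replicates 1, 2 and 3 (adjusted p up to 0.0892). The Nrp1 call was lost without any 1 of GFP replicates 1, 3, 4 and 5, Cre replicates 2, 3 and 4, or Flpo replicates 3 and 6 (adjusted p up to 0.116). With library totals alone, and on TPM, 1 rose and 1 fell. In Flpo against Cre livers, 2 rose and 2 fell, with 13.7% of all genes called, 7.45% higher and 6.26% lower: Egfr (-1.98), Itga5 (-0.74), Slc2a2 (1.01) and the transferrin receptor gene Tfrc (0.84), whose value was -0.048 with the clock score. With library totals alone 3 rose and 2 fell, and on TPM 5 rose and 2 fell.

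Of 28 genes that build or cap galectin-binding sugars, 2 rose and none fell in Cre against GFP livers, where 9.55% of all genes were called. The balance turned with the scaling, to 1 higher and 2 lower with library totals alone and 0 higher and 1 lower on TPM. St3gal1, a sialyltransferase, averaged 89.3 ± 17.9 CPM in Cre and 60.3 ± 9.25 CPM in GFP livers (0.57, adjusted p = 0.0182, edgeR), a call lost with library totals alone and on TPM. Between Flpo and Cre livers 2 rose and 5 fell in Flpo, where 13.7% of all genes were called, among them St3gal6 (1.85), St3gal3 (-0.44) and C1galt1c1 (-0.42), the chaperone gene of the core O-glycan synthase. This balance also turned, to 5 higher and 2 lower with library totals alone and 5 higher and 1 lower on TPM. The St3gal3 call was lost on TPM and the C1galt1c1 call under both, while the St3gal6 call held under both.

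Of 19 genes of lysosome damage and its clearance, 3 rose and 3 fell in Cre against GFP livers, where 3.97% of all genes rose and 5.58% fell. But none rose and 5 fell both with library totals alone and on TPM. Ctsb, which encodes the lysosomal protease cathepsin B, averaged 403 ± 58.7 CPM in Cre and 557 ± 38.2 CPM in GFP livers (-0.47, adjusted p = 0.00551, edgeR). The autophagy kinase gene Ulk1 rose (0.40, adjusted p = 0.00829), as did Tfe3, a lysosomal transcription factor gene (0.45, adjusted p = 0.0137), and both calls were lost under those scalings, while that of Ctsb held. Flpo livers against Cre livers had 2 that rose and 4 that fell, including Ctsb (0.49) and the autophagy receptor gene Sqstm1 (-0.43). Over all genes 7.45% rose and 6.26% fell there. With library totals alone 3 rose and 2 fell, and on TPM 4 rose and none fell, where the Sqstm1 call was lost.

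Markers of the cells known to carry galectin-1 were read beside it. Of 18 stellate cell and fibroblast markers, none rose and 6 fell in Cre against GFP livers, with a list median of -0.60. Over all genes 3.97% rose and 5.58% fell in that comparison. With library totals alone 8 of the markers fell and on TPM 9, and none rose. Col1a1, a collagen chain gene, averaged 6.23 ± 2.44 CPM in Cre and 21.2 ± 6.45 CPM in GFP livers (-1.76, adjusted p = 0.00381, edgeR). Col1a2 stood at -1.501 (adjusted p = 0.000644), Col3a1 at -1.83 (adjusted p = 0.00458) and Lrat, the retinol-storage enzyme gene of quiescent stellate cells, at -0.66 (adjusted p = 0.0166). The summed TPM of the list was 221 to 291 in Flpo, 116 to 227 in Cre and 210 to 282 in GFP libraries, with no marker at 0. Of the 18, 6 rose and none fell in Flpo against Cre livers, where 7.45% of all genes rose and 6.26% fell. With library totals alone and on TPM, 7 and 8 rose. The 6 included the same 3 collagen genes and Lrat. Lgals1 lay below every one of these markers in Cre against GFP. Over deviations from group means, r between Lgals1 and the 18 markers had a median of -0.05 and ran from -0.40 to 0.37. With the clock score, 3 of the markers passed the test, all lower in Cre than in GFP livers. The part of these markers in the Lgals1 result was not tested, and in bulk tissue fewer cells of a type and less RNA per cell cannot be told apart.

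Of 18 macrophage and Kupffer cell markers none passed the test in Cre against GFP livers, where 9.55% of all genes were called. Of these markers 2 had an unadjusted p under 0.05 (edgeR). With library totals alone 1 fell, and none passed the test on TPM. Lyz2 averaged 27.1 ± 6.45 CPM in Cre and 38.3 ± 11.9 CPM in GFP livers (adjusted p = 0.187), and C1qa averaged 22.3 ± 5.47 and 26.8 ± 4.88 CPM (adjusted p = 0.457). The list summed to 182 to 396 TPM in Flpo, 180 to 238 TPM in Cre and 228 to 335 TPM in GFP libraries. In Flpo against Cre livers, where 13.7% of all genes were called, Cd9 fell (-0.89) and the list median was 0.42. The Cd9 call was lost when either of Flpo replicates 3 and 4 or Cre replicate 5 was left out (adjusted p up to 0.0795, edgeR). That call was also lost with library totals alone and on TPM, where 4 and 7 other markers rose in Flpo and none fell. Lgals3 had a median r of 0.41 with these markers over deviations from group means, and 5 of the 18 were above 0.5. For the other members this median ran from -0.36 for Lgals9, with 0 of the 18 above 0.5, to 0.24 for Lgals4. It was -0.25 for Lgals1. With lymphocyte and neutrophil markers the Lgals3 median was 0.34, and with endothelial markers it was 0.25.

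Among markers of other cells in Cre against GFP livers, 1 gene each was called in several lists. Over all genes 9.55% were called in that comparison, 3.97% higher and 5.58% lower, so single calls in lists of this size are not read as results about cell types. Cd4 rose of 11 lymphocyte and neutrophil markers (1.76), Kdr of 12 endothelial markers (0.52) and Sox9 of 9 cholangiocyte markers (1.31). The list medians were 0.07, 0.31 and -0.17 in that order, and 3 of the 9 cholangiocyte markers had values above 0. Summed TPM of the cholangiocyte list ran from 30.6 to 56.6 in Cre and from 50.1 to 59.6 in GFP libraries. Over deviations from group means, r between Lgals1 and the 9 cholangiocyte markers had a median of 0.48. It ran from -0.26 to 0.65 and was above 0.5 for 3 of them. For Lgals1 the medians of the other cell marker lists ran from -0.25 to 0.01. The part of cholangiocyte markers in the Lgals1 result was not tested. Wt1 fell of 5 mesothelial markers (-1.90) and Hbb-bs, a globin gene, of 3 fat, pancreas and blood transcripts (-0.77). The mesothelial list median was -1.48, with 0 of 5 values above 0 and 3 of 5 unadjusted p under 0.05 (edgeR). That list was near the floor, with summed TPM of 0.654 to 2.71 in Cre and 2.36 to 7.89 in GFP libraries. The list with Hbb-bs had a median of -0.91 in Flpo against GFP livers, where none was called, and -0.72 in Cre against GFP livers. Of 11 hepatocyte markers, Apoa1 rose (0.50) and Ttr fell (-0.35). The Sox9 and Wt1 calls held without any single library, while Cd4 lost its call in 5 of the 16 fits that left a library out, Kdr in 5, Apoa1 and Ttr in 6 each and Hbb-bs in 11, with adjusted p up to 0.0861, 0.0718, 0.0786, 0.0772 and 0.116 in that order. The Kdr and Apoa1 calls were also lost with library totals alone and on TPM, and that of Cd4 on TPM. Of the hepatocyte markers, none rose and 2 fell with library totals alone, and none rose and 3 fell on TPM. Between Flpo and Cre livers, Cd4 (-2.60), Kdr (-0.61), Sox9 (-1.68) and Apoa1 (-0.89) fell in Flpo, and Spp1, a cholangiocyte marker, rose (0.71), a call lost in 13 of the 16 fits (adjusted p up to 0.12). There 7.45% of all genes rose and 6.26% fell, and the cholangiocyte list median was 0.67. In Flpo against GFP livers, where 0.0288% of all genes were called, no gene of any list passed the test. Between 0 and 4 genes per list had an unadjusted p under 0.05 (edgeR).

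**Figure D5:**
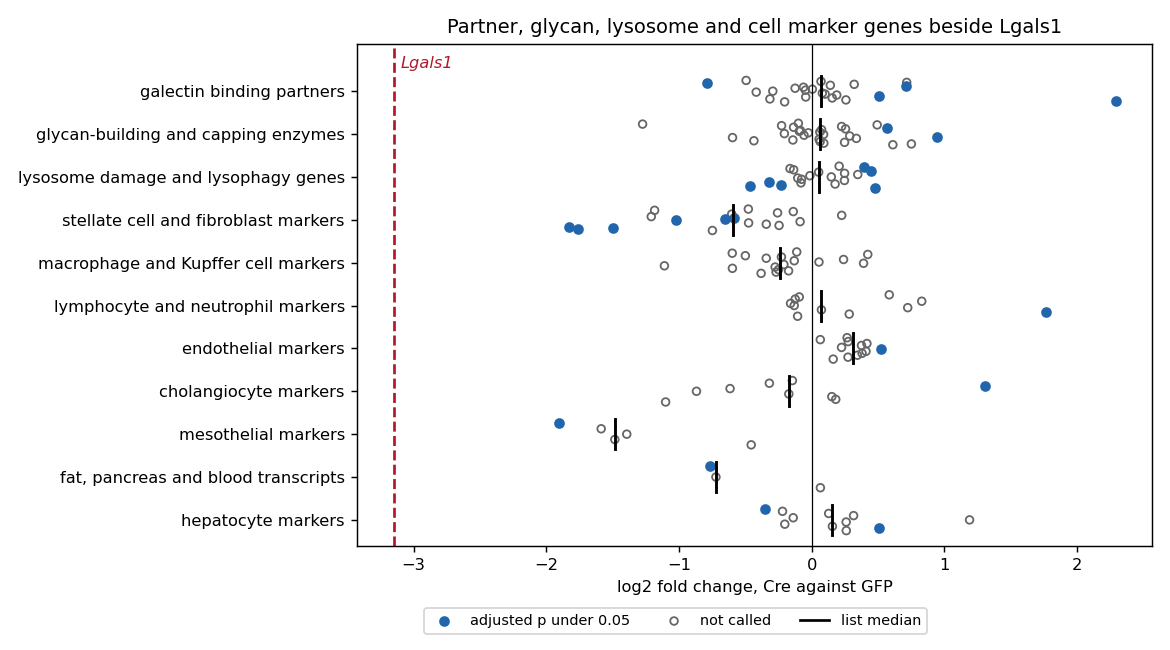
Log2 fold change in Cre against GFP livers (horizontal axis) for each tested gene of the 11 lists (rows), with filled points for an adjusted p under 0.05 and a bar at each list's median; the dashed line marks Lgals1. Lgals1 at -3.15 lies to the left of every listed gene, Egfr at 2.30 is farthest right, and the stellate cell and fibroblast row has a median of -0.60.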

How the data were processed

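Liver RNA of 16 libraries was sequenced as polyA-enriched, paired-end reads, per the labels' protocols. Per the submitters' processing notes the authors used cutadapt, STAR and the mm10 build, with no versions given; the program that made the counts is not given in the sources used here. The deposited tables hold estimated counts, of which 31.7% of values were not whole, and the authors' TPM values; 0 sample columns were left unused. Estimated counts were rounded, filtered with filterByExpr (minimum count 10), scaled by TMM and tested over 13905 genes of all 3 groups with edgeR 4.0.16 quasi-likelihood fits in R 4.3.3 (Benjamini-Hochberg, threshold 0.05). CPM values are TMM-scaled. Intervals at 95% use 13 residual degrees of freedom. DESeq2 1.42.0 and limma 3.58.1 served as alternatives. No library pair of a group agreed within sampling noise (lowest chi-square per degree of freedom 29.7). The edgeR step was checked on simulated counts.

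The genes followed and the gene lists were chosen with earlier results of these data known. Genes named are the 6 members, the 10 genes most like Lgals1 and 3 most like each other member by r of log2 CPM (prior count 2, mean CPM of at least 1), and per list up to 4 called genes with the smallest adjusted p in each comparison, or up to 2 with the highest mean TPM where none was called. Coordinates are from GENCODE vM21. Lgals6 and Tf were not analysed here, and 3 genes that this rule names are not reported here.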

Additional observations from a re-analysis of the deposited data

Results flagged for a closer look

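Lgals8 in Cre replicate 5 stood apart from its group. It had 155 CPM, where the other 4 Cre libraries had 113 to 122 CPM. It was 1 of 18 groups examined (6 genes in 3 groups), and chance alone marks about 1 group in 20.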

How the results depend on the processing

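The tests were repeated under 27 alternatives, 16 of which left out a library, 10 changed scaling, filter, tool, samples or block, and 1, the clock score as a covariate, was chosen after seeing the data. Genes called in Cre against GFP numbered 1328 in the reported fit, 834 with only those 2 groups, 2104 and 2172 on log2(TPM + 1) and log2(TPM + 0.1) with limma, and 273 with the clock score. In Flpo against GFP 4 became 70 with DESeq2, 2 with limma-voom, 1 with the 2 groups only, 0 with a replicate block and 0 with the clock score. In Flpo against Cre 1906 became 10 with the clock score, in which the libraries of those groups do not overlap.

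With the clock score, Flpo against GFP gave Lgals3 -0.014, Lgals8 0.12 and Lgals3bp 0.034, and Flpo against Cre gave Lgals1 2.43, Lgals3 0.38, Lgals4 -0.66, Lgals8 0.072, Lgals9 -0.060 and Tfrc -0.048. On the TPM scales with 1 and 0.1 added, Flpo against Cre gave Lgals4 -0.059 and -0.064, Lgals8 -0.030 and -0.031, and Lgals9 -0.0018 and -0.0017, and Cre against GFP gave Lgals9 -0.14 and -0.14. With library totals alone Lgals9 was at -0.10 in Cre against GFP and -0.080 in Flpo against Cre. That scaling moved the median of all genes to -0.14 in Cre against GFP and 0.13 in Flpo against Cre, and TPM moved it to -0.12 and 0.14; calls in Cre against GFP were then 300 higher and 1656 lower, and 216 higher and 1888 lower on TPM, against 552 and 776. In Flpo against Cre they were 1810 higher and 454 lower, and 2417 and 326 on TPM, against 1036 and 870. The cause was not tested.

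Leaving out single libraries, Lgals1 ranged from -3.34 to -3.004 in Cre against GFP and from -0.13 to 0.089 in Flpo against GFP, where Lgals3bp ranged from -0.10 to 0.0072, Lgals4 from -0.34 to 0.070 and genes called from 0 to 15. None of the 6 genes passed the threshold in Flpo against GFP under any alternative run. Of the called list genes named, 9 of 21 in Cre against GFP and 14 of 22 in Flpo against Cre held under every alternative run on them other than the clock score (Wt1 did not pass the stricter CPM filter and was not tested there), and 5 of 21 and 0 of 22 held with it. In Flpo against Cre the SE rose with the score, from 0.22 to 0.35 for Lgals1 and from 0.22 to 0.47 for Lgals3. Whether the lost calls depend on the score was not tested. Libraries of the same replicate number in different groups were little alike (r of deviations from group means -0.16 to 0.12). The same number was the best match in 1 of 5 pairs of Cre and GFP, 0 of 5 of Flpo and Cre and 3 of 5 of Flpo and GFP. The replicate block gave 1019, 0 and 1352 calls and Lgals1 at -3.20 in Cre against GFP. Lgals3 and Lgals4, under 10 CPM in most libraries, are the members that depth limits most.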
